A study of Homo sapiens with 6 samples.

Results

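The genes described here are 10 regulators of the G1 phase of the cell cycle: the D cyclins CCND1, CCND2 and CCND3, the E cyclins CCNE1 and CCNE2, the kinases CDK4 and CDK6, the INK4 inhibitors CDKN2A and CDKN2B, and the CIP/KIP inhibitor CDKN1B. They were chosen by symbol for their role, with earlier results of these data known. All 10 were found by Ensembl identifier among the 16715 distinct identifiers of the deposited expression table. The series examined transcripts after 5aza in HCT116, an established human colorectal carcinoma line. There were 3 libraries from control cells and 3 from cells given 5aza at 5 µM for 48 hours and then kept in fresh medium for a further 48 hours. Azanucleosides are cytidine analogues that trap DNA methyltransferases on DNA, so that methylation is diluted as cells divide. The titles and treatment labels call the compound 5aza, while the sample descriptions and the table's columns carry the code DAC, and its full name is not given, so which azanucleoside was used is uncertain. Nor do the sources used here say what the control cells received, or whether the replicates of a group were separate cultures, so the p-values measure only the spread between these libraries. Levels are in FPKM, fragments scaled by transcript length and by the library's mapped fragments. No source used here gives the length taken for each gene, so levels of different genes can be set side by side only roughly. No DNA methylation was analysed here.

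Passage through G1 is driven by D cyclins bound to CDK4 or CDK6, and then by E cyclins bound to CDK2. These kinases phosphorylate RB1 and its relatives and so release E2F transcription factors, which switch on genes of DNA synthesis, the E cyclin genes among them. INK4 proteins bind CDK4 and CDK6 and keep D cyclins off them, while the CIP/KIP protein p27, the product of CDKN1B, binds whole cyclin-kinase complexes. In colorectal cells CCND1 is known to respond to growth factor and Wnt signals. The INK4 genes CDKN2A and CDKN2B are known to be silenced by promoter methylation in many tumours.

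Since DNA methylation in human cells lies mainly on CG dinucleotides, stretches upstream of CDKN2A, CDKN2B and CDK6 are shown, with each CG in capitals and the rest in lower case. They come from RefSeq on GRCh38.p14, are written 5′ to 3′ on the strand of the gene, and leave out every base that lies in an annotated exon. The CDKN2A stretch (chr9:21995325-21995481, minus strand) lies before the upstream start, from which the ARF product is made. No stretch is shown for the downstream start, that of the INK4 product, since nearly all bases before it lie in annotated exons. The CDKN2B stretch is chr9:22009364-22009555 (minus strand), and the CDK6 stretch, upstream of the more distal of its 2 starts with a window, is chr7:92836595-92836823 (minus strand). Those of the other genes are not printed: for CDK4 most bases before the start lie in annotated exons.
CDKN2A, upstream start: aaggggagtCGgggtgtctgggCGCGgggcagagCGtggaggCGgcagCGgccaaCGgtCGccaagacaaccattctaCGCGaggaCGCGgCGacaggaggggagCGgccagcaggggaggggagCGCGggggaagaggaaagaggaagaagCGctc
CDKN2B: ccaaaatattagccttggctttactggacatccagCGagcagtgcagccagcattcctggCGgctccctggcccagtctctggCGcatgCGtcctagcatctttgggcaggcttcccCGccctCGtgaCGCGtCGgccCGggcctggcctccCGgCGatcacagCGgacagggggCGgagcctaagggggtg
CDK6: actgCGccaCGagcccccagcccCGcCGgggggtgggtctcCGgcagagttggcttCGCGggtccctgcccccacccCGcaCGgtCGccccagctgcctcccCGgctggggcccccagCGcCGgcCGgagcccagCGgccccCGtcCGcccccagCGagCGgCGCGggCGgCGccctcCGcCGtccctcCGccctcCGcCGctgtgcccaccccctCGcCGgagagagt
The stretches hold 17 CG in 157 bases for CDKN2A, 14 in 192 for CDKN2B, and 30 in 229 for CDK6.

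RefSeq windows of 300 bases, from 250 before to 50 after a start, were found for 7 of the 10 genes, in 11 windows, since CCND3, CDK6 and CDKN2A have several starts. The windows held between 3 CG (the most downstream start of CCND3) and 47 CG (CCNE1), where the median over 35116 windows of all genes was 14 and the quartiles were 4 and 28. The ratio of observed to expected CG was above 0.6 in 10 of the 11 windows and in 48.9% of all windows. The window of CDK4, which fell, held 23 CG, and those of CDK6, which rose, held 29 and 37. The windows of CDKN2A, which fell, held 26 and 28 CG, and that of CDKN2B, which rose, held 25. Their counts all lay above the median of all windows, and those of the genes that rose and of those that fell overlapped. The SP1-type word GGGCGG, on either strand, was in 8 of the 11 windows and in 44.95% of all windows. The TATA-type word TATAAA was in 0 of the 11 and in 11.5% of all windows, and the E2F-type word, TTT followed by any 2 bases and CGC, in 0 of the 11 and in 6.89%. These are matches of letters only and do not show that a factor binds or does not bind.

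Summed FPKM was 601916 to 628399 in control and 577735 to 592051 in 5aza libraries, without overlap. Median FPKM was slightly higher in 5aza (6.16 to 6.24) than in control libraries (5.94 to 6.02). The control genes ACTB (control and 5aza means 1728 and 1606 FPKM) and GAPDH (3812 and 3644 FPKM) were lower in every 5aza library. Neither passed the test described below. The part of these differences in the changes of the G1 genes was not tested. Of the variance across the libraries, 67.3% lay on the first principal component. No source used here gives total reads, and low values did not step by whole fragments (26.7% to 30.3% of them lay within 0.1 of a whole number at the best-fitting depth), so the depth behind a value is unknown. Of 8 epithelial markers of the labelled line 6 were tested, 4 of which rose and 1 fell, and their summed level was 2346 to 2500 FPKM in control and 2846 to 2918 FPKM in 5aza libraries; the part of this in the results on the G1 genes was not tested. EPCAM, an epithelial adhesion protein, was at 166 and 153 FPKM and KRT8, an epithelial keratin, at 984 and 1151 FPKM in control and 5aza libraries. CDX2, an intestinal transcription factor, was at 9.01 and 9.37 FPKM, whereas the intestinal markers VIL1 and LGR5 had means of at most 0.124 FPKM. All 5 leukocyte and 3 endothelial markers were too low to test, with summed levels of at most 1.14 and 0.584 FPKM. Of 8 fibroblast markers, PDGFRA (26.7 and 25.7 FPKM) and COL1A1 (4.67 and 6.71 FPKM) were tested, and 5 stayed under 0.5 FPKM in all libraries.

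The G1 genes split. Of the 10, 9 had at least 0.5 FPKM in at least 3 libraries and were tested with limma, and CCND2 was too low to test. CCND1, CCNE1, CDK6 and CDKN2B rose, CCNE2, CDK4, CDKN2A and CDKN1B fell, and CCND3 did not pass. The words rose and fell are used where a gene's Benjamini-Hochberg adjusted p over all 12360 genes tested was under 0.05, which 10.6% of genes did upward and 13.1% downward (23.7% in all). The groups did not overlap in 8 of the 9 tested genes, against 42.2% of all genes tested. The changes were moderate: 2 of the 9, CDK6 and CDKN2B, exceeded 1.5-fold and 0 reached 2-fold on the log2(FPKM + 0.1) scale. The median log2 fold change was 0.08 over the 9 genes and -0.01 over all genes tested. In bulk RNA, fewer cells with a transcript and less transcript per cell cannot be told apart.

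**Figure D1:**
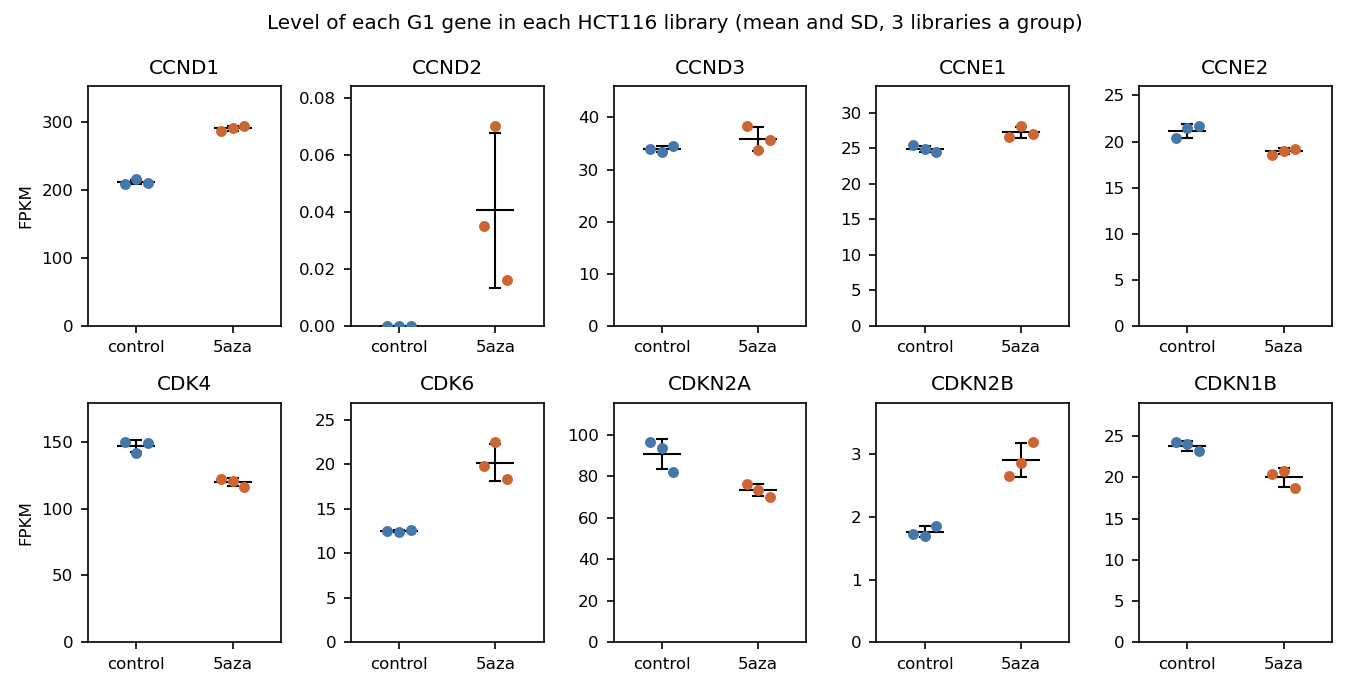
FPKM of each of the 10 genes in each library (points; y axes start at 0 and differ between panels), with the mean and SD of 3 libraries per group. The control and 5aza libraries overlap in CCND3 alone, and CCND2 stays under 0.1 FPKM.

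CCND1 (ENSG00000110092, chromosome 11, 69641087 to 69654474 on GRCh38), the cyclin that carries most growth factor and Wnt input to CDK4 and CDK6, was the most abundant of the 10 genes and rose. Its level was 209.9, 216.1 and 210.5 FPKM in the control libraries and 287.7, 291.3 and 294.9 FPKM in the 5aza libraries. Every 5aza library was thus above every control library, with a gap of 71.6 FPKM between the groups. Group means were 212 ± 3.42 and 291 ± 3.56 FPKM (SD, n = 3), and limma gave a log2 change of 0.46 (SE 0.027, adjusted p = 5.34e-05). Among genes with a mean of at least 100 FPKM, 5.62% rose and 40.5% fell. Removing the dependence of fold change on abundance gave a log2 change of 0.56 for CCND1.

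CCND3 (ENSG00000112576, chromosome 6, 41934933 to 42050357), the D cyclin best known from lymphoid and muscle cells, stood at 33.9, 33.3 and 34.5 FPKM in control libraries. Its 5aza libraries were at 38.4, 33.7 and 35.7 FPKM, so the groups overlapped, and 5aza replicate 1 was the highest of the 6. The log2 fold change was 0.08 (SE 0.051, limma adjusted p = 0.286), and was 0.03 without 5aza replicate 1 and 0.13 without 5aza replicate 2, again without passing. CCND2 (ENSG00000118971, chromosome 12, 4273772 to 4305350), the remaining D cyclin gene, was listed at 0 in all 3 control libraries and at 0.0351, 0.0702 and 0.0163 FPKM in the 5aza libraries. A trace was thus listed in each 5aza library, far under the 0.5 FPKM needed for a test. This was not particular to CCND2: the table listed 1663 to 1761 rows at 0 in control and 755 to 801 in 5aza libraries, and LEF1, CCNA1, COL1A2 and LUM also went from 0 in every control library to a trace in every 5aza library. Tested with no filter on low values, CCND2 did not pass (limma adjusted p = 0.1002). As a sum, D cyclins stood at 246 ± 2.96 FPKM in control and 327 ± 2.90 FPKM in 5aza libraries (SD, n = 3), and CCND1 made up 86.2% and 89.0% of it.

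The E cyclins, which activate CDK2 at the entry into S phase, moved a little and in opposite directions. CCNE1 (ENSG00000105173, chromosome 19, 29811898 to 29824308) was at 25.4, 24.9 and 24.5 FPKM in control and 26.7, 28.2 and 26.9998 FPKM in 5aza libraries. The 5aza libraries lay above the control libraries by at least 1.24 FPKM, and the log2 change was 0.13 (SE 0.039, limma adjusted p = 0.0482). CCNE2 (ENSG00000175305, chromosome 8, 94879770 to 94896678) was at 20.3, 21.4 and 21.7 FPKM in control and 18.6, 19.0 and 19.2 FPKM in 5aza libraries. Here the 5aza libraries lay below the control libraries by at least 1.11 FPKM, a log2 change of -0.16 (SE 0.042, limma adjusted p = 0.0327). Their sum was 46.1 ± 0.287 FPKM in control and 46.2 ± 0.953 FPKM in 5aza libraries (SD, n = 3), with overlapping groups, while the share of CCNE1 in it went from 54.1% to 59.0%. Both calls are fragile: that of CCNE1 was lost without any 1 of the 6 libraries (limma adjusted p between 0.0693 and 0.132) and with the replicate number as a block (limma adjusted p = 0.0675). That of CCNE2 was lost without any 1 library other than control replicate 1 (limma adjusted p between 0.0659 and 0.0982) and with GC and length trends removed (limma adjusted p = 0.0949), and without a variance trend neither passed.

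The D-cyclin partner kinases CDK4 and CDK6 also parted. CDK4 (ENSG00000135446, chromosome 12, 57747727 to 57756013), the more abundant, was at 149.3, 141.5 and 148.8 FPKM in control and 121.9, 120.5 and 116.3 FPKM in 5aza libraries. All 5aza libraries lay below all control libraries, by at least 19.7 FPKM. Group means were 147 ± 4.35 in control and 119.6 ± 2.89 FPKM in 5aza libraries (SD, n = 3), so that the gene fell (log2 change -0.29, SE 0.034, limma adjusted p = 0.00123). CDK6 (ENSG00000105810, chromosome 7, 92604921 to 92836594) was at 12.5, 12.4 and 12.6 FPKM in control and 19.8, 22.4 and 18.3 FPKM in 5aza libraries. The control libraries lay close together, and the 5aza libraries were higher, by at least 5.70 FPKM, and more spread. Group means were 12.5 ± 0.0911 in control and 20.2 ± 2.09 FPKM in 5aza libraries (SD, n = 3), so that the gene rose (log2 change 0.68, SE 0.073, limma adjusted p = 8.33e-04), and 4.17% of tested genes had a larger absolute change. The sum of both kinases was 159 ± 4.41 FPKM in control and 139.7 ± 4.46 FPKM in 5aza libraries, and the share of CDK6 in it 7.87% ± 0.185 and 14.4% ± 1.12 (SD, n = 3).

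The INK4 genes CDKN2A and CDKN2B lie next to each other on chromosome 9. They showed the same split between an abundant gene that fell and a scarce one that rose. CDKN2A (ENSG00000147889, chromosome 9, 21967753 to 21995301) makes the INK4 protein p16 and, from the upstream start, the p53 regulator ARF, and its 1 row in the table does not separate them. It was at 96.3, 93.7 and 82.3 FPKM in control and 76.4, 73.5 and 70.3 FPKM in 5aza libraries. Control replicate 3 was the lowest of its group but still 5.88 FPKM above the highest 5aza library. Group means were 90.8 ± 7.43 in control and 73.4 ± 3.08 FPKM in 5aza libraries (SD, n = 3), so that the gene fell (log2 change -0.30, SE 0.062, limma adjusted p = 0.0121). CDKN2B (ENSG00000147883, chromosome 9, 22002903 to 22009363), which makes p15, an inhibitor induced by TGF-beta, was at 1.73, 1.70 and 1.86 FPKM in control and 2.65, 2.87 and 3.19 FPKM in 5aza libraries. Every 5aza library was higher than every control library, with a gap of 0.791 FPKM. Group means were 1.77 ± 0.0862 in control and 2.90 ± 0.268 FPKM in 5aza libraries (SD, n = 3), so that the gene rose (log2 change 0.68, SE 0.11, limma adjusted p = 0.00451). The sum of CDKN2A and CDKN2B was 92.5 ± 7.35 in control and 76.3 ± 2.81 FPKM in 5aza libraries (SD, n = 3). CDKN2B made up 1.92% and 3.82% of this sum, which leaves out the INK4 genes CDKN2C and CDKN2D. The sum also takes in any ARF transcripts of the CDKN2A row, so it does not measure p16 and p15 transcripts alone.

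CDKN1B (ENSG00000111276, chromosome 12, 12715058 to 12722371), the gene of p27, fell. It was at 24.2, 24.0 and 23.1 FPKM in control and 20.4, 20.8 and 18.7 FPKM in 5aza libraries, with no overlap. Group means were 23.8 ± 0.571 in control and 20.0 ± 1.096 FPKM in 5aza libraries (SD, n = 3), so that the gene fell (log2 change -0.25, SE 0.050, limma adjusted p = 0.0111). Its CIP/KIP relative CDKN1A, which encodes p21, a p53 target that stops the cell cycle, moved the other way, from 101 ± 1.97 to 263 ± 2.03 FPKM (SD over 3 libraries; log2 change 1.38, limma adjusted p = 3.83e-07). In control libraries CDKN1A was thus below CCND1 and CDK4, and in 5aza libraries it was above CDK4.

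**Figure D2:**
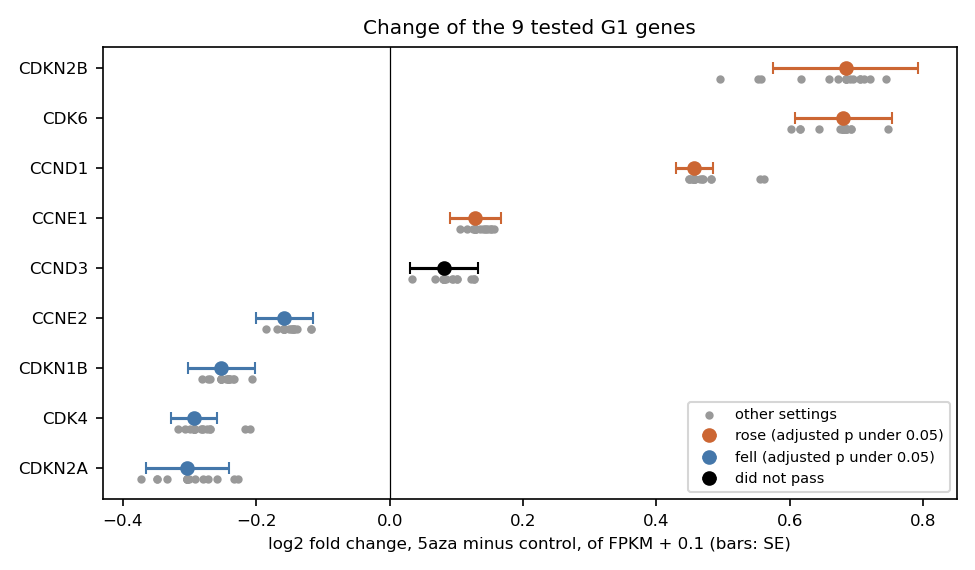
Log2 fold change of FPKM + 0.1, 5aza minus control, of the 9 tested genes, with SE bars from limma; grey points are the 17 other settings. CDKN2B and CDK6 lie furthest right at 0.68 each and CDKN2A furthest left at -0.30, and 0 grey points cross to the other side of 0.

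On the FPKM scale, the order in control libraries was CCND1, CDK4, CDKN2A, CCND3, CCNE1, CDKN1B, CCNE2, CDK6, CDKN2B and CCND2. Each gene's 3 values lay above those of the next gene in this order. After 5aza the first 5 places were the same, and CDK6 passed CDKN1B and CCNE2 to the place after CCNE1. The values of CDK6, CDKN1B and CCNE2 (means 20.2, 20.0 and 18.9 FPKM) overlapped between neighbours there, so their order after 5aza does not exceed the spread. The ratio of CCND1 to CDK4 went from 1.45 to 2.44. The summed D cyclins per summed CDK4 and CDK6 went from 1.55 ± 0.0624 to 2.34 ± 0.0972, and D cyclins per CDKN1B from 10.4 ± 0.263 to 16.4 ± 1.08 (SD, n = 3), both without overlap. Summed CDKN2A and CDKN2B per summed CDK4 and CDK6 was 0.582 ± 0.0530 and 0.546 ± 0.0121 (SD, n = 3), and the groups overlapped. The CDKN2A part of this ratio does not separate p16 from ARF. These sums describe transcripts, not proteins or complexes, and were given no test. The order, shares and ratios between genes also depend on the length taken for each gene, which is unknown. For CDKN2A the longest annotated transcript has 1283 bases and all its exons together 4329.

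**Figure D3:**
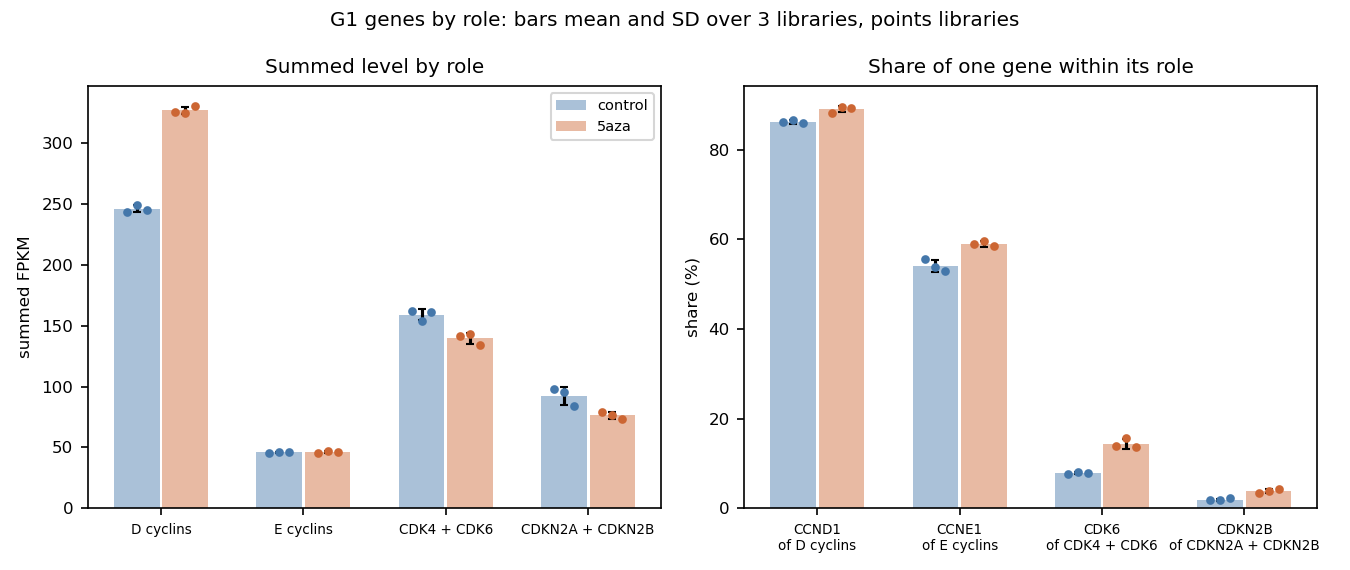
Left, summed FPKM of the D cyclins, E cyclins, CDK4 with CDK6, and CDKN2A with CDKN2B; right, the share in percent of one gene within each sum. Bars are means with SD over 3 libraries and points are libraries; the E cyclin sum is 46.1 and 46.2 FPKM while the CDK6 share goes from 7.87% to 14.4%.

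Whether partners moved by different amounts was tested on the log2 ratio of both genes within each library, for 5 pairs. The log2 ratio of CDK4 to CDK6 was 3.54 ± 0.037 in control and 2.57 ± 0.13 in 5aza libraries (SD, n = 3), a difference of -0.97. That of CDKN2A to CDKN2B was 5.60 ± 0.18 and 4.62 ± 0.19 (SD, n = 3), a difference of -0.99. The differences were 0.29 for CCNE1 to CCNE2, 0.38 for CCND1 to CCND3 and 0.33 for CCND1 to CCNE1. In all 5 pairs the groups did not overlap, and each gave p = 0.1 in a two-sided exact permutation test over the 20 groupings of the libraries (Benjamini-Hochberg adjusted p = 0.1). This is the smallest p that 3 against 3 libraries allow, so none of the 5 could pass 0.05.

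Across the whole table, calls differed with abundance. Among genes with means from 1 to under 10 FPKM, as CDKN2B has, 10.8% rose and 3.43% fell. Among those from 10 to under 100 FPKM, as CDK6, CDKN1B, CDKN2A and the E cyclins have, 9.87% rose and 18.1% fell. CDK4 and CCND1 fall in the class of 100 FPKM or more described above. With the trend on expression removed, the log2 changes were -0.21 for CDK4, 0.68 for CDK6, -0.23 for CDKN2A, 0.55 for CDKN2B and -0.23 for CDKN1B, and all 5 still passed. The part of abundance in the splits was not otherwise tested.

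Some rows may hold reads of an overlapping gene, since no source used here says whether the libraries keep the strand. An exon of LTO1 on the opposite strand overlaps CCND1, and LTO1 rose from 20.9 to 24.4 FPKM (log2 change 0.22, limma adjusted p = 0.0459), a call lost under 8 of 17 other settings. An exon of INTS8 on the opposite strand overlaps CCNE2, and INTS8 fell from 43.5 to 37.1 FPKM (log2 change -0.23, limma adjusted p = 0.0188), a call lost under 5 of 17. An exon of TSPAN31 overlaps CDK4, at 7.34 and 6.84 FPKM (limma adjusted p = 0.398). Exons on the opposite strand also overlap CDK6 (AC002454.1), CCND3 (AL513008.1), CCNE2 (AC087752.4) and CCND2 (CCND2-AS1), but no FPKM values were found for these overlapping genes. CDKN2B-AS1 runs against the strand of CDKN2A and CDKN2B, and its exons overlap those of CDKN2A but not those of CDKN2B. It had no FPKM values either and was not analysed here. On the same strand, an exon of AC008012.1 overlaps CCND2, and this gene had no FPKM values. The part of such reads in the changes was not tested.

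Beyond the 10 genes, 8 lists named 85 genes of their pathway, of which 82 had FPKM values and limma could test 78. CUL4B, BMI1 and CDKN2B-AS1 were not found by symbol. There were 8 that rose, 22 that fell and 48 that did not pass, with a median log2 fold change of -0.03. Over all genes tested, 10.6% rose and 13.1% fell. The share that fell was 3.43% at means from 1 to under 10 FPKM, 18.1% from 10 to under 100 FPKM and 40.5% at 100 FPKM or more. Whether the lists differ from these shares was not tested. Of 13 tested genes of pocket proteins, which the G1 kinases phosphorylate, and of the E2F factors so released, 0 rose, 6 fell and 7 did not pass (list median -0.12). E2F8 fell from 11.1 ± 0.0949 to 7.98 ± 0.386 FPKM and E2F1 from 26.1 ± 0.220 to 20.1 ± 0.296 FPKM (SD over 3 libraries; log2 changes -0.47 and -0.37). RB1, the retinoblastoma protein that the G1 kinases switch off, was at 20.52 and 20.02 FPKM (limma adjusted p = 0.603). Of 8 genes of CDK2 and CDK activation, 0 rose and 3 fell (median -0.10). CDK2, the partner of the E cyclins, fell from 73.4 ± 1.19 to 58.4 ± 0.801 FPKM (SD over 3 libraries; log2 change -0.33, limma adjusted p = 4.23e-04), and the phosphatase gene CDC25B from 78.0 to 67.4 FPKM.

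Of the 4 other inhibitors, CDKN1A rose, the INK4 gene CDKN2C fell from 9.17 ± 1.11 to 6.34 ± 0.244 FPKM (SD over 3 libraries; log2 change -0.52), and CDKN1C and CDKN2D did not pass. Of 14 tested genes of cyclin and p27 turnover, 1 rose and 3 fell (median -0.03). GSK3B, a kinase that marks cyclin D1 for destruction, rose from 14.8 to 18.4 FPKM, and CKS1B, which helps SKP2 recognise p27, fell from 217 to 180.5 FPKM. RBX1, a subunit of cullin ubiquitin ligases, fell from 52.9 to 46.0 FPKM, a call lost under 6 of 17 other settings.

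Of 15 tested mitogenic inputs to D cyclins, 3 rose and 1 fell (median 0.02). JUN, an AP-1 subunit that can act on the CCND1 promoter, rose from 7.32 ± 0.174 to 13.1 ± 0.618 FPKM (SD over 3 libraries; log2 change 0.83, limma adjusted p = 1.18e-04), and STAT3 from 21.9 to 27.2 FPKM. TCF7L2, a Wnt pathway transcription factor, fell from 59.1 to 51.1 FPKM, a call lost under quantile normalization (limma adjusted p = 0.0727). MYC was at 149.5 and 149.1 FPKM (limma adjusted p = 0.963). Of 18 tested regulators of the INK4 locus and of CDKN1B, 3 rose and 2 fell (median 0.05). SMAD3, a mediator of TGF-beta signals, rose from 17.8 ± 2.92 to 25.7 ± 2.97 FPKM and ETS1 from 2.55 to 3.72 FPKM. EZH2, the Polycomb methyltransferase, fell from 32.9 to 26.999 FPKM and MEN1, a chromatin cofactor, from 53.7 to 46.1 FPKM. The SMAD3 call was lost under 4 and the MEN1 call under 7 of 17 other settings.

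MTAP, the neighbour of CDKN2A, fell from 100.5 to 90.2 FPKM (log2 change -0.15, limma adjusted p = 0.0261), a call lost under 8 of 17 other settings, quantile normalization (limma adjusted p = 0.311) among them. All 5 tested cyclins and kinases of later phases fell (median -0.27). CCNA2, the S phase cyclin, from 64.8 to 50.9 FPKM and CDK1, the mitotic kinase, from 121.9 to 99.5 FPKM had the largest falls. Of all genes tested, 18.1% fell at means from 10 to under 100 FPKM and 40.5% at 100 FPKM or more.

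**Figure D4:**
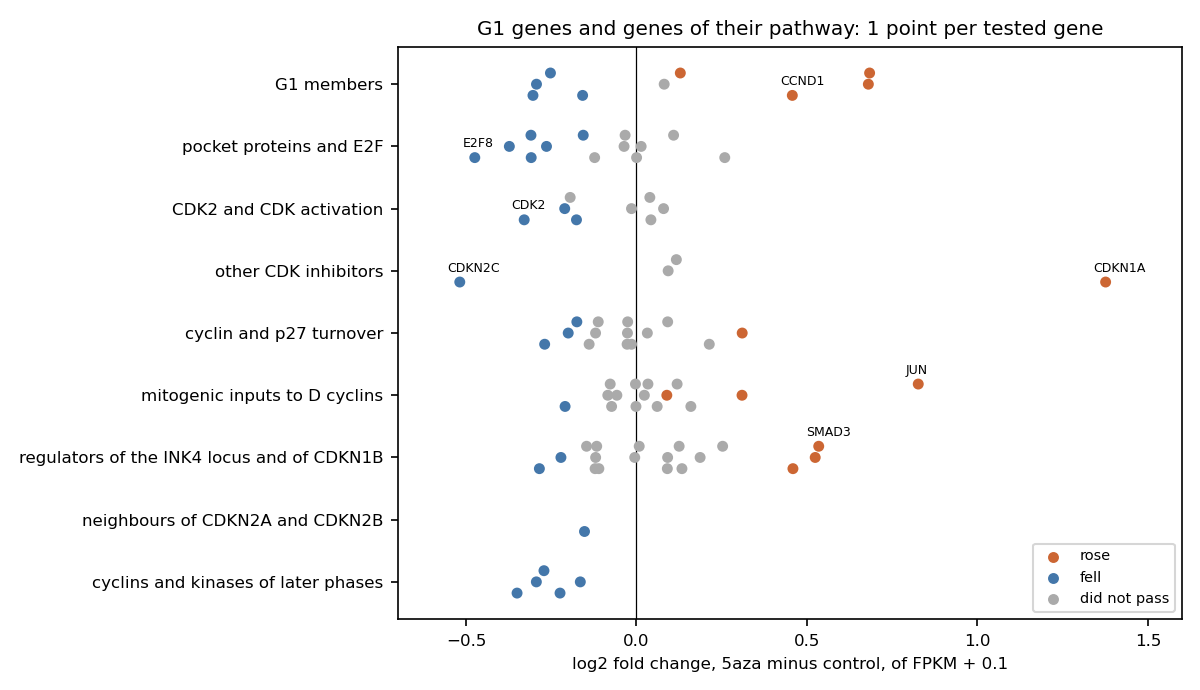
Log2 fold change of FPKM + 0.1, 5aza minus control, with 1 point per tested gene of the G1 set and of each of 8 pathway lists, coloured by the limma call. CDKN1A stands apart at 1.38, and the genes of later phases are all below 0.

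For CCND1 and CDK6, which had the smallest adjusted p-values, the genes with the most similar pattern were sought among 10956 others by the root mean square distance of centred log2 values over the 6 libraries. Nearest to CCND1 were APOBEC3D (distance 0.023), TNFRSF10B (0.025) and HIVEP2 (0.026), with log2 changes of 0.44, 0.48 and 0.45. Nearest to CDK6 were SLC43A2 (0.052), LYNX1 (0.057) and DRAXIN (0.061), with log2 changes of 0.59, 0.69 and 0.61. As with 5aza replicate 2 of CDK6, that library was the highest of its group for all 3. Since the genes were picked for closeness over these 6 libraries, their similar changes and library order follow from the choice.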

How the data were processed

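RNA was measured in 6 libraries of HCT116 cells. The authors deposited 1 table of FPKM values per gene, without read counts. DESeq2 1.10.1, STAR 2.5.1b and HTSeq 0.6.0 appear without a role in the submitters' processing notes, as do Rnor_6.0 and GRCh38. Which program computed FPKM is not stated there. Columns were matched to samples through the sample descriptions. For 11 identifiers on several rows, only that of highest mean was used. Symbols came from a reference table (15410 of 15451 Ensembl identifiers matched) and coordinates from GENCODE release 29.

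Values were used as log2(FPKM + 0.1), so that fold changes of low genes are understated. The test, for genes that reached 0.5 FPKM in 3 or more libraries, was limma 3.58.1 under R 4.3.3 (two-sided, variance trend, Benjamini-Hochberg over all genes tested), after a check on simulated data. Pairs of genes were compared by exact permutation. Alternatives were other pseudocounts, filters, scalings and variance models, trends on expression or on GC content and length removed, a replicate block, and each library left out. The members, lists and tests were chosen with earlier results of these data known. Genes named were all 10 members, up to 2 rising and 2 falling genes per list, CDKN1A, RB1, CDK2, MYC, MTAP, the nearest 3 genes to 2 members, and ACTB and GAPDH as control genes; overlapping genes and markers were added.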

Additional observations from a re-analysis of the deposited data

How the results depend on the processing

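Of 17 alternatives to the whole-table fit, all kept the direction of the 9 tested G1 genes, and CCND1, CDK4, CDK6, CDKN2A, CDKN2B and CDKN1B passed under each. CCND3 passed under 0 of them, with log2 changes between 0.03 and 0.13. CCNE1 and CCNE2 each passed under 9. With no variance trend, the log2 changes of CCNE1 (0.13) and CCNE2 (-0.16) did not pass. With the replicate block, CCNE1 (0.13) did not pass. With GC and length trends removed, CCNE2 (-0.12) did not pass, also with the replicate block (-0.12). Without 1 library, the log2 change was between 0.11 and 0.14 for CCNE1 and between -0.19 and -0.14 for CCNE2. The cause was not tested. Genes called numbered 2929, and between 1877 and 2599 without 1 library; the drop exceeded 1.5 times without 5aza replicate 3 (1877) and control replicate 2 (1880). Falls numbered 1619, 1041 with no variance trend, and between 940 and 1521 without 1 library. The drop exceeded 1.5 times with no variance trend, without 5aza replicate 3 (987), and without either control replicate 1 (1035) or 2 (940).

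Among genes that did not pass, RB1 turned to 0.0074 with GC and length trends removed, with or without the block. MYC turned to 0.086 under quantile normalization, 0.0088 under median-of-ratios scaling, 0.084 with the expression trend removed, 0.020 with GC and length trends removed, with or without the block, and lay between -0.040 and 0.024 without 1 library. ACTB (-0.11) turned to 0.022 with the expression trend removed and passed without control replicate 3 (-0.12, limma adjusted p = 0.0479), and GAPDH (-0.07) to 0.071 there and to 0.050 under quantile normalization.

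Same-numbered libraries of both groups deviated from their group means with correlations across genes of 0.048, 0.077 and 0.068. These were low, but each library correlated best with its own number. No cut-off was set for this check, so it does not decide whether the numbers mark pairs. The block gave 2932 calls in place of 2929, but only 2586 genes were called in both fits. For the 5 gene pairs the block allows no p under 0.25. With total reads unknown, counting error of low genes such as CCND2 and CDKN2B cannot be given.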
